A study of Mus musculus with 12 samples.

Results

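The cytochrome P450, glutathione transferase, aldehyde dehydrogenase and alcohol dehydrogenase genes were followed in murine hip cartilage. They were taken as every probe of the normalized expression table whose gene symbol begins with Cyp and a digit (Cyp51 left out), Gst and a class letter (a, k, m, o, p, t or z), or Mgst, Aldh or Adh and a digit. This gave 81 probes for 56 of the 15434 gene symbols in the table: 20 P450 genes, 16 glutathione transferases, 3 microsomal glutathione transferases, 14 aldehyde dehydrogenases and 3 alcohol dehydrogenases. All 56 symbols are current in RefSeq. A further 127 probes that the array annotates to these families are outside the normalized table, and 117 of them were detected on none of the arrays. Another 5 probes for 4 genes (Adh6b, Aldh16a1, Aldh1l1 and Cyp4f39) stand in the table under older names and were not counted, and none of these 5 passed the test for a change with injury in either genotype.

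RNA from mouse hip cartilage was measured on 12 Illumina BeadChips, arrays that read each transcript with short probes on beads. The mice were C57BL6, 4 to 6 weeks old by their labels, and either WT or MAPK9 KO. Mapk9 encodes JNK2, a stress-activated kinase. Cartilage of each genotype was either a control or injured and kept for 4 h, with 3 arrays in each of the 4 groups (control and injured, each in WT and in Mapk9 KO). Injury was done by pulling off the femoral epiphysis, and each replicate was pooled from several mice. By the paper's account, freezing of controls came directly after this step, whereas injured hips were cultured for 4 h after it. The comparison is thus of cartilage frozen at once with cartilage cultured after the epiphysis was pulled off. Injury and culture cannot be told apart. The labels do not say how the knockout was made or in which cells. The question each injury comparison answers is which transcripts differ between injured and control cartilage, and the genotype comparisons ask whether that depends on Mapk9.

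The 4 enzyme groups handle small molecules in sequence. Cytochromes P450 insert oxygen into drugs, steroids, fatty acids and retinoids, with electrons passed on by P450 oxidoreductase. Glutathione transferases join glutathione to reactive products, the cytosolic classes in solution and the microsomal ones (Mgst) in membranes, where some also make leukotrienes. Alcohol dehydrogenases turn retinol and other alcohols into aldehydes, and aldehyde dehydrogenases turn aldehydes into acids, among them retinaldehyde into retinoic acid, a signal that chondrocytes respond to. Liver is the organ best known for these enzymes, and in cartilage they are studied mostly for retinoid and oxidant handling.

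The Mapk9 transcript was read by 2 probes of the table. The stronger one read 10.5 to 10.9 on the WT control arrays, 10.1 to 10.6 on WT injured, 9.14 to 9.28 on Mapk9 KO control and 8.69 to 8.78 on Mapk9 KO injured arrays (log2 normalized signal), so it was lower in all knockout arrays but still detected. The other was detected on all WT control arrays and on no knockout array. Between 16930 and 18969 probes were detected (detection p-value under 0.05) on an array. Chondrocyte marker genes gave strong signal, with a mean of 10.5 to 11.2 over 8 genes on the control arrays. After injury this mean was 12.04 to 12.38, and in each genotype 5 of these 8 genes rose and 0 fell. Skeletal muscle markers were also present, at a mean of 11.5 to 12.8 on WT control, 12.9 to 13.3 on Mapk9 KO control, 8.47 to 10.6 on WT injured and 8.99 to 10.3 on Mapk9 KO injured arrays. Of these 12 muscle genes, 11 fell with injury in WT and all 12 fell in Mapk9 KO. In bulk RNA, fewer cells of a type and less RNA per cell cannot be told apart. Of the 7 hepatocyte markers, Alb, Apoa1, Apoa2, Ttr, Fgb and Ahsg have no probe in the table, and Serpina1a is in it. Serpina1a rose on both of its probes in WT and on the dimmer one in Mapk9 KO, by 1.15 (adjusted p = 0.0122) in WT on the stronger probe, where Mapk9 KO had 0.59 (adjusted p = 0.0788).

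Promoters of P450 genes were looked at because the control of these genes is best known through short promoter elements. Sequences are shown for the 3 P450 genes that passed in both genotypes and hold 1 of the matches marked below. The other P450 genes that passed in both, Cyp2e1, Cyp2f2, Cyp2s1 and Cyp3a13, hold neither of these matches and are not shown. The 250 bases before the transcription start are printed 5′ to 3′ on the gene's strand, from RefSeq promoter windows of build GRCm38.p6. Capitals mark matches to GCGTG, the core bound by the aryl hydrocarbon receptor with its partner Arnt, or to TGACNNNGC, the antioxidant response core bound by Nrf2. Both strands were searched, so CACGC is a match to GCGTG on the other strand. Cyp1b1 is at chr17:79715062-79715311 (minus strand), Cyp4v3 at chr8:45333164-45333413 (minus strand) and Cyp4f18 at chr8:72009627-72009876 (minus strand).
Cyp1b1: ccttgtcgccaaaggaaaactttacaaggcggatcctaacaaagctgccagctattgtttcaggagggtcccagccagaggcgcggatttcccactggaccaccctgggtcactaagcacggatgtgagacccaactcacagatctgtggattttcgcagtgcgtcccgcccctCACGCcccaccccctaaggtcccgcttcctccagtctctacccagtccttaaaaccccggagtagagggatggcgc
Cyp4v3: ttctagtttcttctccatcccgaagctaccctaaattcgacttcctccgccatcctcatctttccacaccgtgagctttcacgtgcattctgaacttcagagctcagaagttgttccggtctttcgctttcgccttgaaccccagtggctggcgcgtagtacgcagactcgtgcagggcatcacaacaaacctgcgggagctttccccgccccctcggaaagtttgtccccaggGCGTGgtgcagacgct
Cyp4f18: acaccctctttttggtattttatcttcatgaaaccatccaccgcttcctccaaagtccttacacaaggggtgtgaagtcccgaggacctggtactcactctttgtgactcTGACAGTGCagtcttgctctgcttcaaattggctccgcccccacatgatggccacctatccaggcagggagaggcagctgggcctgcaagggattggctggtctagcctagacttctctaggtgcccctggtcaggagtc

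A window of 300 bases (250 before the start and 50 after) was found for 44 of the 56 genes. GCGTG was held by 15 of these 44 genes (34.1%) and by 35.2% of all 27025 genes with a window. TGACNNNGC was held by 5 (11.4%) against 14.0% of all, and AGGTCA, a nuclear receptor half-site, by 7 (15.9%) against 18.1%. The shares were near those of all genes. Of the 10 genes with a window that fell in both genotypes, Adh7, Cyp1b1 and Cyp4v3 held GCGTG, Cyp2f2 held AGGTCA and none held TGACNNNGC. Of the 3 with a window that rose in both, Cyp4f18 held TGACNNNGC. A match is a match of letters only and was not tested for binding.

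Not all family members were measurable in this tissue. The array annotates 81 P450 symbols, and 20 had a probe in the table, of which 9 were detected on all 12 arrays, 9 on 3 to 11 arrays and 2 on fewer. Of 21 annotated glutathione transferase symbols, 16 were in the table and 11 were detected on every array. All 3 microsomal glutathione transferases were detected on every array. Of 20 annotated aldehyde dehydrogenases, 14 were in the table and 10 were detected on every array, and of 7 alcohol dehydrogenases 3 were in the table, with Adh5 alone detected throughout. P450 genes were thus the family with the smallest share of its symbols in the table. For a probe that no array of a group detected, the change is given as a bound, set against the lowest value of a detected probe on each array, and the values of such arrays lie at background.

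In WT cartilage, 17 of the 56 genes passed the test (limma, fold above 2 and adjusted p under 0.05 in at least 1 probe), or 30.4% of them, where 16.6% of all 15434 genes passed. Of the 17, 4 rose (8.35% of all genes rose) and 13 fell (8.24% of all genes fell). In Mapk9 KO, 22 genes passed, 39.3% of the 56, where 20.9% of all genes passed. The same 4 rose (10.6% of all genes rose) and 18 fell (10.4% of all genes fell). Rises and falls were about equal in number over all genes, whereas falls outnumbered rises among these enzymes. Over 1 probe per gene, the median log2 change was -0.24 in WT and -0.31 in Mapk9 KO, beside -0.02 and -0.04 over all genes. Markers of synovium and fibroblasts had medians of -0.92 in WT (2 of 6 fell) and -1.16 in Mapk9 KO (3 of 6 fell), and osteoblast markers -0.27 (3 of 6 fell) and -0.60 (4 of 6 fell), with no rises in either list. Their part in the falls of these enzymes was not tested. The genes that rose in both were Aldh1a3, Cyp3a13, Cyp4f18 and Mgst2. Those called as falls in both were Adh7, Aldh1a1, Aldh1a7, Cyp1b1, Cyp2e1, Cyp2f2, Cyp2s1, Cyp4v3, Gsta4, Gstm2 and Gstp2. No WT array detected Aldh1a7, so its WT call compares values at background and shows no measured fall. The groups of these 15 genes did not overlap on the main probe, as held for 41.2% of all probes in WT and 49.7% in Mapk9 KO. The calls of Cyp1b1, Cyp4v3, Gstm2 and Mgst2 in WT held under every processing alternative and without each array in turn, and the other 13 were lost under at least 1 alternative. In Mapk9 KO this held for 11 of 22 genes: Aldh1a3, Aldh4a1, Cyp1b1, Cyp2e1, Cyp4f18, Cyp4v3, Gstk1, Gstm2, Gstp2, Mgst2 and Mgst3. With quantile normalization and no background correction, 6 genes passed in WT and 11 in Mapk9 KO, and the methods' t-test gave 8 and 18. The genes that lost their call under that normalization had smaller fitted changes. Mgst3 in WT had a larger one, -1.02 in place of -0.83 on its stronger probe, and was gained.

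**Figure D1:**
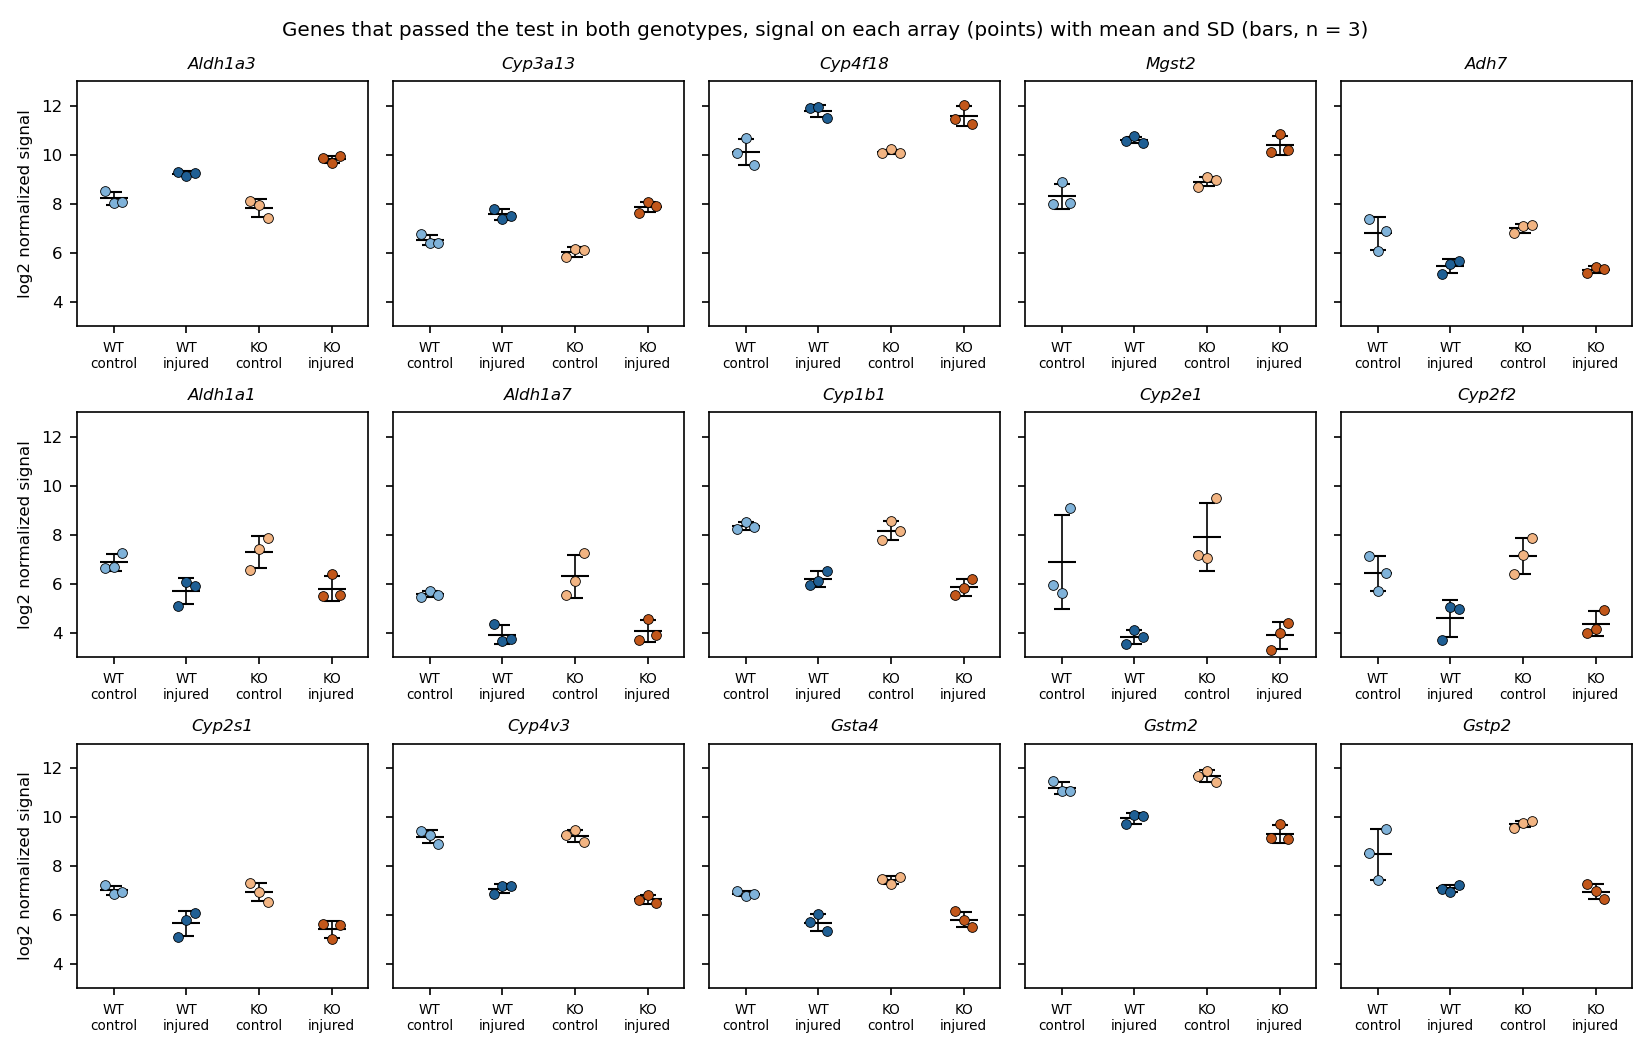
Log2 normalized signal of the 15 genes that passed the test in both genotypes, 1 probe each, in the 4 groups (x axis). Points are arrays in the order of replicates 1 to 3, and bars are the mean and SD of 3 arrays. The 4 genes of the first panels were higher on every injured array than on any control array of the same genotype, and the other 11 were lower. Aldh1a7 was undetected on all WT arrays.

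By family, counts stand beside shares of all genes of 8.35% up and 8.24% down in WT, and 10.6% and 10.4% in Mapk9 KO. Of P450 genes, 2 rose and 5 fell in each genotype. No glutathione transferase outside the microsomal family rose, while 4 fell in WT and 6 in Mapk9 KO. Among the microsomal forms, 1 rose in both genotypes and 1 fell in Mapk9 KO. Of the aldehyde dehydrogenases, 1 rose in both, 3 fell in WT and 4 fell in Mapk9 KO. The WT falls include Aldh1a7, undetected on all WT arrays, and Aldh1a2, whose passing probe was undetected on all WT injured arrays. The alcohol dehydrogenases had 1 fall in WT and 2 in Mapk9 KO. The median change per family was -0.26 (WT) and -0.24 (Mapk9 KO) for P450 genes, -0.33 and -0.73 for glutathione transferases, 0.77 and 0.27 for the 3 microsomal forms, -0.04 and -0.01 for aldehyde dehydrogenases, and -0.63 and -1.40 for the 3 alcohol dehydrogenases. These medians describe the families, and the differences between them were not tested.

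**Figure D2:**
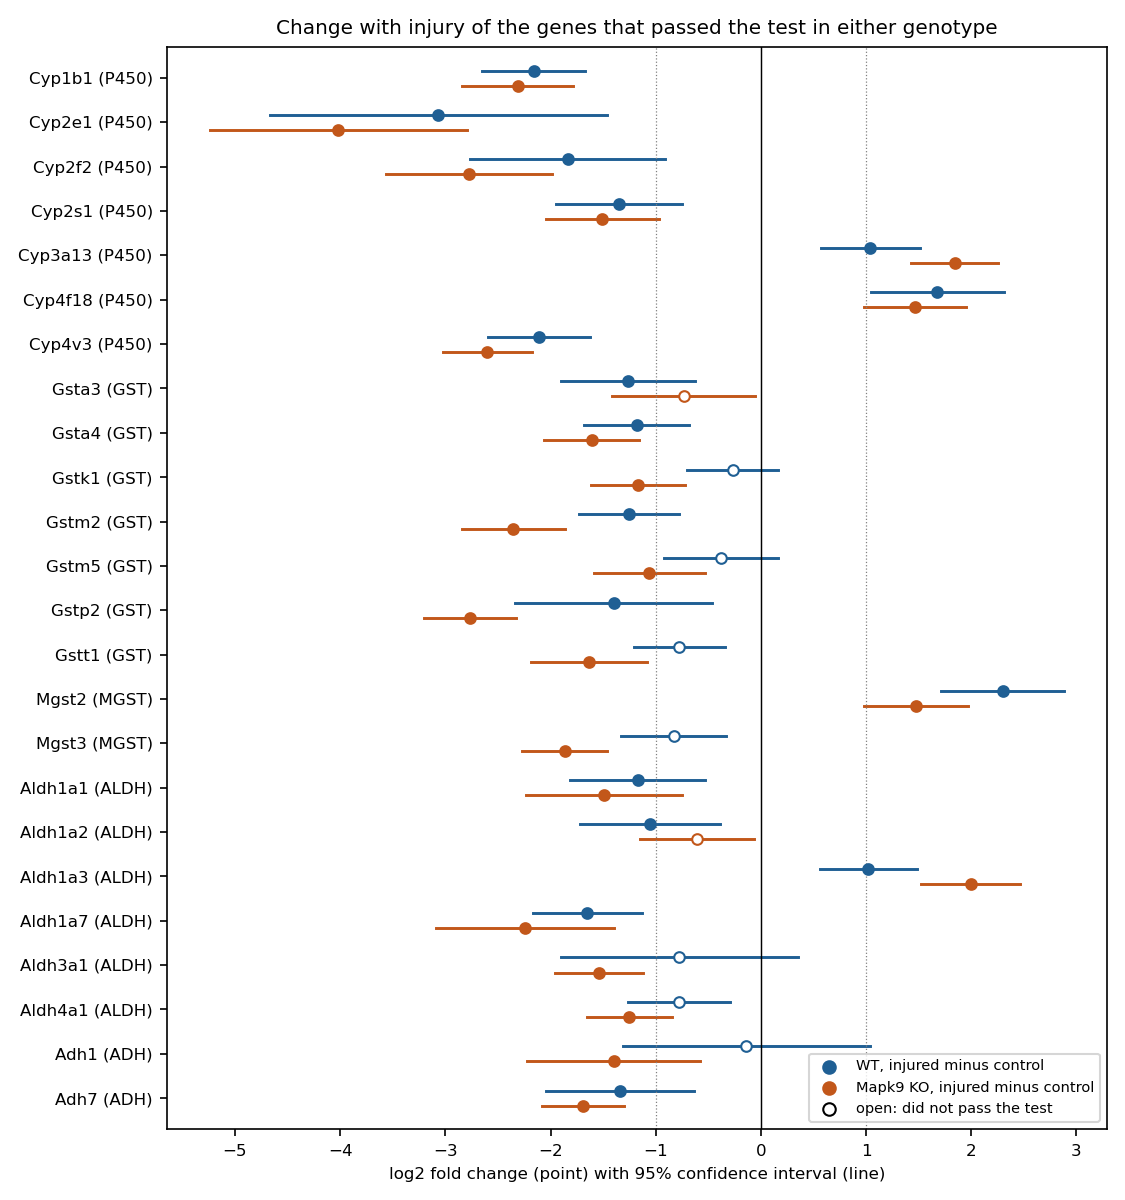
Log2 fold change with injury (x axis, point) with its 95% confidence interval (line) for the 24 genes that passed the test in either genotype, in WT and in Mapk9 KO. Filled points passed the test and open points did not, and dotted lines mark a fold of 2 in either direction. Fitted values are plotted also where a group was undetected, as for Cyp2e1 and Adh7. In all 24 genes both points lie on the same side of 0.

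Among P450 genes, Cyp1b1 and Cyp4v3 had the largest falls in WT among those detected on all arrays of both WT groups. Cyp1b1 metabolizes oestrogens, retinoids and polycyclic hydrocarbons and is a target of the aryl hydrocarbon receptor. It read 8.23, 8.53 and 8.32 on WT control arrays and 5.93, 6.13 and 6.54 on WT injured arrays (log2 normalized signal). In Mapk9 KO it read 7.80, 8.56 and 8.15 on control and 5.53, 5.85 and 6.19 on injured arrays. The groups lay far apart in both genotypes. The log2 change was -2.16 (SE 0.22, adjusted p = 0.000119, limma) in WT, a 4.47-fold fall, and -2.31 (SE 0.24, adjusted p = 3.15e-05) in Mapk9 KO.

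Cyp4v3, the mouse counterpart of a fatty acid hydroxylase gene mutated in a corneal and retinal dystrophy, also fell. Its signal was 9.41, 9.26 and 8.89 on WT control arrays and 6.86, 7.18 and 7.20 on WT injured arrays. On Mapk9 KO arrays it was 9.28, 9.45 and 8.96 in controls and 6.61, 6.81 and 6.47 after injury. No injured array reached the lowest control array. The change was -2.11 (SE 0.22, adjusted p = 0.000125) in WT and -2.60 (SE 0.19, adjusted p = 2.78e-06) in Mapk9 KO, falls of 4.32-fold and 6.08-fold.

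The xenobiotic P450 genes Cyp2e1, Cyp2f2 and Cyp2s1 fell to at or near background. Cyp2e1 and Cyp2f2 were each detected on 2 of 3 WT control arrays and on all 3 Mapk9 KO control arrays. Cyp2e1 oxidizes ethanol and small solvents and is also expressed in fat. It read 5.95, 5.62 and 9.09 on WT control and 7.19, 7.06 and 9.51 on Mapk9 KO control arrays, and 3.53 to 4.10 and 3.32 to 4.40 on the injured arrays, where it was not detected. Replicate 3 was far above the other controls in both genotypes. Cyp2e1 was at least 2.06-fold lower in injured WT (adjusted p = 0.0117) and at least 4.18-fold lower in injured Mapk9 KO cartilage (adjusted p = 0.000225). The WT bound rests on replicate 3 of the controls, and the Mapk9 KO bound was smaller without that replicate. Without WT control replicate 3, 1 of the remaining 2 WT controls detected Cyp2e1 and no bound was left, without WT control replicate 2 the WT bound was 3.20-fold, and without Mapk9 KO control replicate 3 the Mapk9 KO bound was 2.41-fold.

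Adipocyte markers moved with Cyp2e1. Over the 4 of 7 markers in the table (Plin1, Cfd, Cidec and Lep; Adipoq, Fabp4 and Retn are not in it), the mean was 6.41, 6.19 and 7.81 on WT control and 6.85, 6.88 and 9.06 on Mapk9 KO control arrays, again highest in replicate 3. It was 4.86 to 5.25 on WT injured and 4.70 to 4.96 on Mapk9 KO injured arrays. Their summed signal was 1499 to 5754 on WT control, 177 to 545 on WT injured, 3705 to 11721 on Mapk9 KO control and 117 to 192 on Mapk9 KO injured arrays. Cfd was detected on every control array. Plin1 was detected on 0 of 3 WT control and 1 of 3 Mapk9 KO control arrays, Cidec on 1 and 1, and Lep on 1 and 3, and all of these were undetected on the injured arrays. Of the 4 genes, 2 fell in WT (Cfd and Cidec) and 3 in Mapk9 KO (Cfd, Cidec and Lep). The part of fat tissue in the fall of Cyp2e1 was not tested. Cyp2e1 passed without each array in turn, but its WT call was lost with the neqc background correction and normalization (adjusted p = 0.0879), with quantile normalization and no background correction (adjusted p = 0.109) and by the methods' t-test (adjusted p = 0.161).

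**Figure D3:**
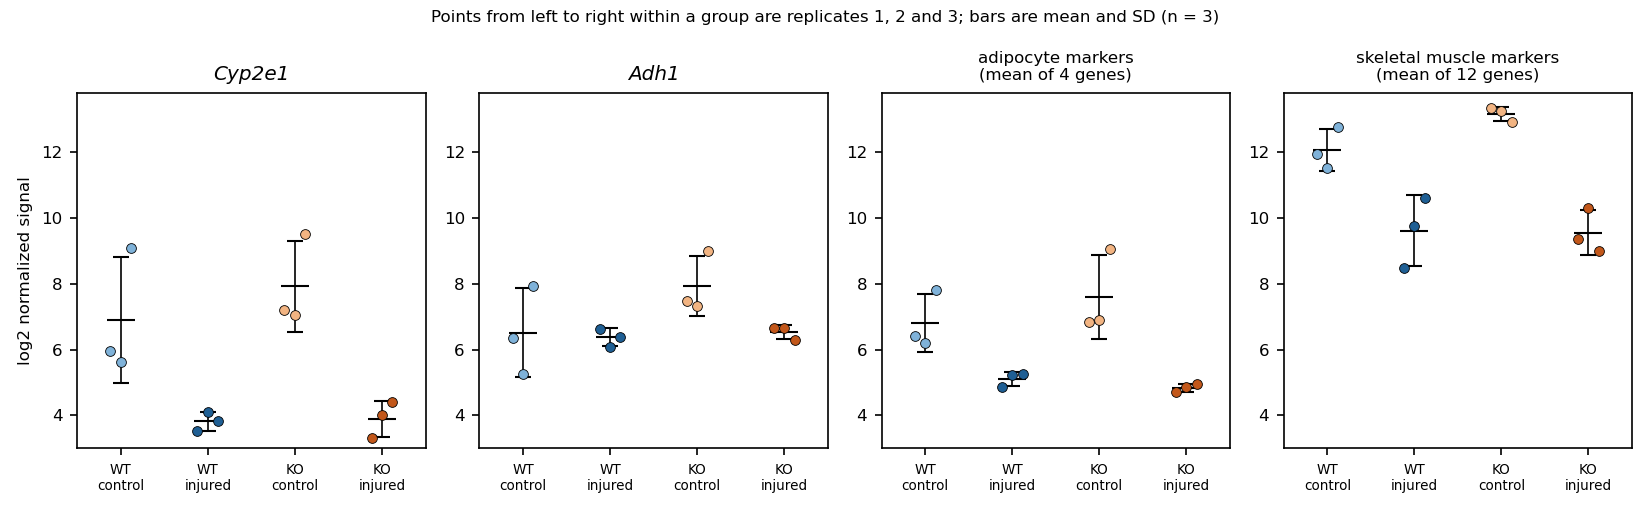
Log2 normalized signal (y axis) of Cyp2e1 and Adh1 and mean log2 signal of the adipocyte markers (4 genes) and skeletal muscle markers (12 genes) in the 4 groups, with points for replicates 1 to 3 and bars for mean and SD (n = 3). Cyp2e1, Adh1 and the adipocyte mean are highest in replicate 3 of both control groups, whereas the muscle mean is not highest there in Mapk9 KO.

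Cyp2f2, known for naphthalene metabolism in airway cells, read 7.14, 5.69 and 6.45 on WT control and 6.38, 7.19 and 7.86 on Mapk9 KO control arrays. On the injured arrays it was undetected, at 3.72 to 5.06 in WT and 3.98 to 4.94 in Mapk9 KO. It was at least 1.5-fold lower after injury in WT (adjusted p = 0.0101) and at least 2.44-fold lower in Mapk9 KO (adjusted p = 0.000143). Cyp2s1, an epithelial P450 that can oxidize retinoic acid, changed by -1.35 (SE 0.27, adjusted p = 0.00517) in WT and was at least 2.09-fold lower in Mapk9 KO (adjusted p = 0.000646).

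A pair of P450 genes rose. Cyp4f18 inactivates leukotriene B4 in neutrophils and other myeloid cells, and all of its 3 probes passed in both genotypes. The strongest probe read 10.07, 10.69 and 9.60 on WT control and 11.91, 11.97 and 11.51 on WT injured arrays. In Mapk9 KO it read 10.06, 10.22 and 10.09 in controls and 11.47, 12.05 and 11.25 after injury. The log2 change of this probe was 1.68 (SE 0.28, adjusted p = 0.00217) in WT and 1.47 (SE 0.22, adjusted p = 0.000398) in Mapk9 KO. The third probe, undetected on all control arrays, was at least 1.71-fold higher in injured WT and at least 3.14-fold higher in injured Mapk9 KO cartilage.

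Neutrophil markers also rose in part. The mean over 7 neutrophil genes of 8 listed was 12.8 to 13.4 on WT control, 13.9 to 14.1 on WT injured, 13.2 to 13.6 on Mapk9 KO control and 13.6 to 14.1 on Mapk9 KO injured arrays, all 7 being detected in every group. Of these, 4 rose in each genotype (Ngp, Lcn2, Ltf and Mpo), the last 2 on dimmer probes alone. The median change over the main probes was 0.67 in WT and 0.11 in Mapk9 KO, where S100a8 had -0.07 and S100a9 had 0.05. Most of the macrophage markers fell. Over 8 genes the median change was -1.41 in WT (2 rose and 5 fell) and -1.62 in Mapk9 KO (2 rose and 6 fell). Their summed signal went the other way, from 9154 to 13067 on WT control to 19629 to 23455 on WT injured arrays, and from 11618 to 14159 on Mapk9 KO control to 20580 to 27763 on Mapk9 KO injured arrays. The part of neutrophils and macrophages in the rise of Cyp4f18 was not tested.

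Cyp3a13, a member of the drug-metabolizing 3A family, rose on both probes. The stronger read 6.77, 6.40 and 6.41 on WT control and 7.81, 7.38 and 7.52 on WT injured arrays. It read 5.81, 6.18 and 6.10 on Mapk9 KO control and 7.63, 8.06 and 7.91 on Mapk9 KO injured arrays. Injured arrays were above all controls in each genotype. The change was 1.04 (SE 0.21, adjusted p = 0.00576) in WT and 1.84 (SE 0.19, adjusted p = 2.96e-05) in Mapk9 KO. The WT call was lost without WT injured replicate 1, with a change of 1.16 (adjusted p = 0.0520) on the second probe.

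The other P450 genes were not called. Cyp4f16 had an adjusted p under 0.05 but less than a 2-fold change (-0.74, SE 0.21, adjusted p = 0.0255 in WT and -0.84, SE 0.20, adjusted p = 0.00656 in Mapk9 KO). Cyp4b1 and Cyp7b1, which acts on oxysterols, had the WT intervals nearest 0 among the P450 genes detected on all arrays. The 95% interval of the WT change was -0.65 to 0.43 for Cyp4b1 and -0.67 to 0.26 for Cyp7b1. Cyp4b1 had a change of -0.76 (SE 0.19, adjusted p = 0.00874) in Mapk9 KO, short of 2-fold. Cyp24a1 and Cyp26b1, which degrade vitamin D hormone and retinoic acid, were detected on 5 and 2 arrays. Cyp24a1 was at least 1.16-fold lower in injured WT cartilage, which did not pass (adjusted p = 0.0565), and Cyp26b1 was undetected on all control arrays, so no fold is given (adjusted p = 0.325 in WT). The remaining P450 genes (Cyp11a1, Cyp11b2, Cyp20a1, Cyp27a1, Cyp2a4, Cyp2c54, Cyp2d22 and Cyp4f13) were not called. Where a control and an injured array detected the main probe, their changes ran from -0.59 to 0.31 in WT and from -0.54 to 0.32 in Mapk9 KO.

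Glutathione transferases were lower after injury where they passed. Gstm2, a mu class enzyme abundant in muscle, was read by 3 probes that all fell. Its strongest probe read 11.46, 11.04 and 11.07 on WT control and 9.70, 10.09 and 10.02 on WT injured arrays. In Mapk9 KO it was 11.68, 11.89 and 11.42 in controls and 9.13, 9.73 and 9.08 after injury. The change was -1.25 (SE 0.21, adjusted p = 0.00229) in WT and -2.35 (SE 0.22, adjusted p = 1.56e-05) in Mapk9 KO. Over the 3 probes it ranged from -1.22 to -1.69 in WT and from -2.35 to -2.43 in Mapk9 KO, though a pair of these probes shares 48 of 50 bases and is nearly the same measurement. The skeletal muscle markers fell alongside, with medians of -2.60 in WT and -3.43 in Mapk9 KO, and their part in the fall of Gstm2 was not tested.

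Gstp2 and Gstp1 are neighbouring copies of the pi class, and the called one was Gstp2. It read 8.54, 7.41 and 9.50 on WT control and 7.07, 6.95 and 7.22 on WT injured arrays, and 9.55, 9.77 and 9.81 on Mapk9 KO control and 7.24, 6.96 and 6.64 on Mapk9 KO injured arrays. WT controls lay far apart, while Mapk9 KO controls lay close together. The change was -1.40 (SE 0.42, adjusted p = 0.0346) in WT and -2.77 (SE 0.20, adjusted p = 2.35e-06) in Mapk9 KO. In WT the call was lost in turn without WT control replicates 1 and 3 and without each WT injured array, with changes of -0.89 to -1.47 and adjusted p of 0.0673 to 0.0981. Gstp1 had changes of -0.04 (SE 0.24, adjusted p = 0.923) in WT and -0.49 (SE 0.16, adjusted p = 0.0378) in Mapk9 KO, under 2-fold, and its WT interval was -0.57 to 0.49. No probe of these families shared 30 or more of its 50 bases, aligned without gaps, with a probe of another gene, and binding of one probe by transcripts of several copies was not tested.

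Gsta4, the alpha class enzyme for the lipid peroxidation product hydroxynonenal, read 6.77 to 6.99 on WT control and 5.32 to 6.03 on WT injured arrays. The change was -1.18 (SE 0.22, adjusted p = 0.0041) in WT and -1.61 (SE 0.20, adjusted p = 0.000127) in Mapk9 KO. Gsta3, which isomerizes steroids and conjugates aflatoxin, was called in WT only, but was detected on 1 control array of each genotype and no injured array, so no fold is given. Its WT call was lost without WT injured replicate 3 (adjusted p = 0.0313, with a fitted change under 2-fold). The difference between the genotypes for Gsta3 had an interaction adjusted p of 0.751.

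Gstk1, Gstm5 and Gstt1 passed in Mapk9 KO only. None of them passed the interaction test (limma, adjusted p = 0.325, 0.546 and 0.397). Gstk1, the kappa class enzyme of mitochondria and peroxisomes, read 9.52, 9.56 and 9.76 on WT control and 9.19, 9.50 and 9.34 on WT injured arrays. It read 10.34, 10.55 and 10.04 on Mapk9 KO control and 8.94, 9.41 and 9.06 on Mapk9 KO injured arrays. The change was -0.27 (SE 0.20, adjusted p = 0.353) in WT and -1.17 (SE 0.20, adjusted p = 0.00106) in Mapk9 KO. The controls of Mapk9 KO were above all WT arrays, and the injured arrays of both genotypes overlapped.

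Gstm5, a mu class form, changed by -0.38 (SE 0.24, adjusted p = 0.295) in WT and -1.06 (SE 0.24, adjusted p = 0.00491) in Mapk9 KO. Its call was lost without Mapk9 KO injured replicate 1 (change -0.80, adjusted p = 0.0159). Gstt1, a theta class form, had -0.78 (SE 0.19, adjusted p = 0.0155) in WT, under 2-fold, and -1.63 (SE 0.25, adjusted p = 0.000449) in Mapk9 KO. Gsto1, an omega class form, had the WT interval -0.44 to 0.57. The remaining glutathione transferases, Gstm1, Gstm4, Gstm6, Gsto2, Gstt2, Gstt3 and Gstz1, were not called in either genotype, with changes of their main probes from -0.65 to 0.57 in WT and from -0.91 to 0.44 in Mapk9 KO. Gsto2 is left out of the Mapk9 KO range because no Mapk9 KO control array detected it.

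The microsomal forms went in different directions. Mgst2, which conjugates glutathione and can make leukotriene C4, read 7.99, 8.91 and 8.05 on WT control and 10.58, 10.77 and 10.49 on WT injured arrays. It read 8.70, 9.08 and 8.96 on Mapk9 KO control and 10.12, 10.84 and 10.22 on Mapk9 KO injured arrays. Every injured array was above every control array. The change was 2.30 (SE 0.26, adjusted p = 0.000239) in WT, a 4.92-fold rise, and 1.48 (SE 0.22, adjusted p = 0.000423) in Mapk9 KO, a 2.78-fold rise.

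Mgst3, a related membrane peroxidase abundant in muscle and heart, read 12.36, 12.75 and 12.18 on WT control and 11.46, 11.87 and 11.50 on WT injured arrays with its stronger probe. It read 12.95, 13.01 and 12.91 on Mapk9 KO control and 11.12, 11.33 and 10.83 on Mapk9 KO injured arrays. Groups did not overlap in either genotype, and the gap was wider in Mapk9 KO. The change was -0.83 (SE 0.22, adjusted p = 0.0225) in WT, under 2-fold, and -1.86 (SE 0.18, adjusted p = 2.23e-05) in Mapk9 KO. The second probe had -0.99 (SE 0.21, adjusted p = 0.00746) in WT, just under 2-fold, and -2.13 (SE 0.20, adjusted p = 1.52e-05) in Mapk9 KO. Mgst3 passed in WT with neqc or quantile normalization and without WT control replicate 1, WT injured replicate 2 or WT injured replicate 3, the last 3 on the second probe at -1.01 to -1.10. Mgst1 changed by 0.77 (SE 0.23, adjusted p = 0.0359) in WT, under 2-fold, and 0.27 (SE 0.21, adjusted p = 0.349) in Mapk9 KO, and a dimmer probe passed in WT without WT control replicate 3 (1.05, adjusted p = 0.0391).

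Retinaldehyde dehydrogenases were split between a rise and falls. Aldh1a3 makes retinoic acid, as do Aldh1a1 and Aldh1a2, whereas Aldh1a7 is a rodent copy of Aldh1a1. Aldh1a3 read 8.05 to 8.53 on WT control, 9.15 to 9.32 on WT injured, 7.42 to 8.14 on Mapk9 KO control and 9.66 to 9.94 on Mapk9 KO injured arrays. Its WT change was close to the 2-fold limit and fell below it without WT control replicate 2 (0.94, adjusted p = 0.0118), WT control replicate 3 (0.95, adjusted p = 0.0156) or WT injured replicate 1 (0.98, adjusted p = 0.0254). A second, dimmer probe was undetected on all control arrays and did not pass. It was at least 1.18-fold higher after injury in WT (adjusted p = 0.142) and at least 1.22-fold higher in Mapk9 KO (adjusted p = 0.067).

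Aldh1a1 read 6.67, 6.69 and 7.26 on WT control and 5.11, 6.09 and 5.90 on WT injured arrays. It read 6.58, 7.42 and 7.89 on Mapk9 KO control and 5.49, 6.39 and 5.53 on Mapk9 KO injured arrays. Injured arrays were below control arrays in both genotypes. The change was -1.17 (SE 0.29, adjusted p = 0.0142) in WT and -1.49 (SE 0.34, adjusted p = 0.00517) in Mapk9 KO. In WT it was no longer past 2-fold without WT control replicate 3 (-0.98, adjusted p = 0.0417) or WT injured replicate 1 (-0.88, adjusted p = 0.0487).

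Aldh1a7 was detected on no WT array, so that its WT call (adjusted p = 0.000763) compares values at background, and it was at least 1.36-fold lower after injury in Mapk9 KO (adjusted p = 0.000956), where 2 control arrays detected it. Without Mapk9 KO control replicate 3 no bound was left. Aldh1a2 had 2 probes that share 46 of 50 bases and disagreed. The dimmer one, detected on 1 control array of each genotype and no injured array, passed in WT (adjusted p = 0.0267), with overlapping groups and no fold to give. It lost the call without WT control replicate 1 or 3 or WT injured replicate 2 or 3, with adjusted p of 0.0705 to 0.1. The brighter probe had a WT change of -0.03 (SE 0.23, adjusted p = 0.942) and was at least 1.46-fold lower in injured Mapk9 KO cartilage (adjusted p = 0.00326), where it was undetected on the injured arrays.

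Aldh3a1 and Aldh4a1 passed in Mapk9 KO only, and neither passed the interaction test (limma, adjusted p = 0.722 and 0.606). Aldh3a1, a corneal and stress-linked enzyme for lipid aldehydes, read 9.10, 6.57 and 8.12 on WT control and 6.85, 7.27 and 7.34 on WT injured arrays. It read 8.21, 8.33 and 8.36 on Mapk9 KO control and 6.67, 6.54 and 7.07 on Mapk9 KO injured arrays. The WT controls lay far apart, with replicate 2 the lowest, and the WT groups overlapped. The change was -0.77 (SE 0.51, adjusted p = 0.301) in WT and -1.54 (SE 0.19, adjusted p = 0.000108) in Mapk9 KO. Without WT control replicate 2, Aldh3a1 also passed in WT, at -1.46 (adjusted p = 0.00491). Aldh4a1, a mitochondrial enzyme of proline breakdown, changed by -0.78 (SE 0.22, adjusted p = 0.026) in WT, under 2-fold, and by -1.25 (SE 0.18, adjusted p = 0.00037) in Mapk9 KO.

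Several aldehyde dehydrogenases were not called at strong signal. Aldh2, the mitochondrial enzyme of acetaldehyde, read 12.4 to 12.8 on WT control and 13.1 to 13.5 on WT injured arrays, a change of 0.76 (SE 0.21, adjusted p = 0.0231) that was under 2-fold. Aldh18a1, which makes the proline precursor, changed by 0.65 (SE 0.24, adjusted p = 0.0729) in WT and 0.72 (SE 0.19, adjusted p = 0.0131) in Mapk9 KO, the latter under 2-fold. Aldh5a1 and Aldh3a2 had the WT intervals nearest 0 among the uncalled aldehyde dehydrogenases detected on all arrays, at -0.57 to 0.47 and -0.59 to 0.32. The change in Mapk9 KO was -0.05 (95% interval -0.50 to 0.41) for Aldh5a1 and 0.03 (-0.37 to 0.43) for Aldh3a2. Aldh1l2, Aldh3b1, Aldh6a1 and Aldh7a1 were not called either, with changes of their main probes from -0.37 to 0.69 in WT and from -0.86 to 0.56 in Mapk9 KO, where no array detected Aldh7a1 and it is left out of the range.

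Adh7, which oxidizes retinol, was detected on every control array and no injured array. It read 6.08 to 7.40 on WT control and 6.80 to 7.14 on Mapk9 KO control arrays. Adh7 was at least 1.94-fold lower after injury in WT (adjusted p = 0.0121) and at least 2.22-fold lower in Mapk9 KO (adjusted p = 3.43e-05). Adh1, the classical alcohol dehydrogenase of liver that is also found in fat, read 6.35, 5.25 and 7.93 on WT control and 6.63, 6.09 and 6.39 on WT injured arrays. It read 7.49, 7.33 and 9.0 on Mapk9 KO control and 6.67, 6.66 and 6.30 on Mapk9 KO injured arrays.

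Replicate 3 was the highest control for Adh1 in both genotypes, as it was for Cyp2e1 and the adipocyte markers, whose part in the Adh1 result was not tested. The Adh1 change was -0.14 (SE 0.53, adjusted p = 0.881) in WT and -1.40 (SE 0.37, adjusted p = 0.0124) in Mapk9 KO. Its interaction did not pass (limma, adjusted p = 0.613). Without Mapk9 KO control replicate 3 the Mapk9 KO change was -0.87 (adjusted p = 0.00784), under 2-fold. The WT change turned to 0.57 without WT control replicate 3 (adjusted p = 0.248) and was -0.77 without WT control replicate 2 (adjusted p = 0.169). Adh5, the formaldehyde-clearing enzyme detected on all arrays, had the WT interval -1.20 to -0.06, with an adjusted p of 0.102. In Mapk9 KO its change was -0.04 (95% interval -0.46 to 0.39, adjusted p = 0.900).

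No gene of these families passed the test for a genotype-by-injury interaction (limma, adjusted p under 0.05), nor did any other gene (0.0% of all). The smallest adjusted p among these genes was 0.312. At an unadjusted p under 0.05 there were 17 probes for 12 of the 56 genes, beside 2088 probes over the whole table (9.94%), and the methods' t-test also gave 0. The fitted interactions of the main probes were negative for 38 of 56 genes (67.9%, beside 54.4% of all genes), with a median of -0.32 against -0.04.

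Mgst3 and Gstm2 were among the genes with the smallest interaction p. The difference between the change in Mapk9 KO and that in WT was -1.14 (SE 0.28, adjusted p = 0.312) for the second Mgst3 probe and -1.10 (SE 0.31, adjusted p = 0.312) for the strongest Gstm2 probe. With the replicate number as a block, Mgst3 passed with the same difference of -1.14 (SE 0.21, adjusted p = 0.0437) and was 1 of 105 genes to pass, 0.68% of all. Gstp2 had -1.37 (SE 0.52, adjusted p = 0.417) and passed without WT control replicate 3, at -1.88 (SE 0.38, adjusted p = 0.032), where 209 genes, 1.35% of all, passed. Differences in the opposite direction were seen for Aldh1a3 (0.97, SE 0.29, adjusted p = 0.328) and Cyp3a13 (0.80, SE 0.27, adjusted p = 0.368), where both changes were rises. Of the 3 Cyp4f18 probes, the third had the same interaction adjusted p of 0.312, also in the positive direction, but it was undetected on all control arrays. The other probes of Cyp4f18 had interactions of -0.21 and -0.11. Skeletal muscle markers had a median interaction of -1.07, and their part in these differences was not tested.

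**Figure D4:**
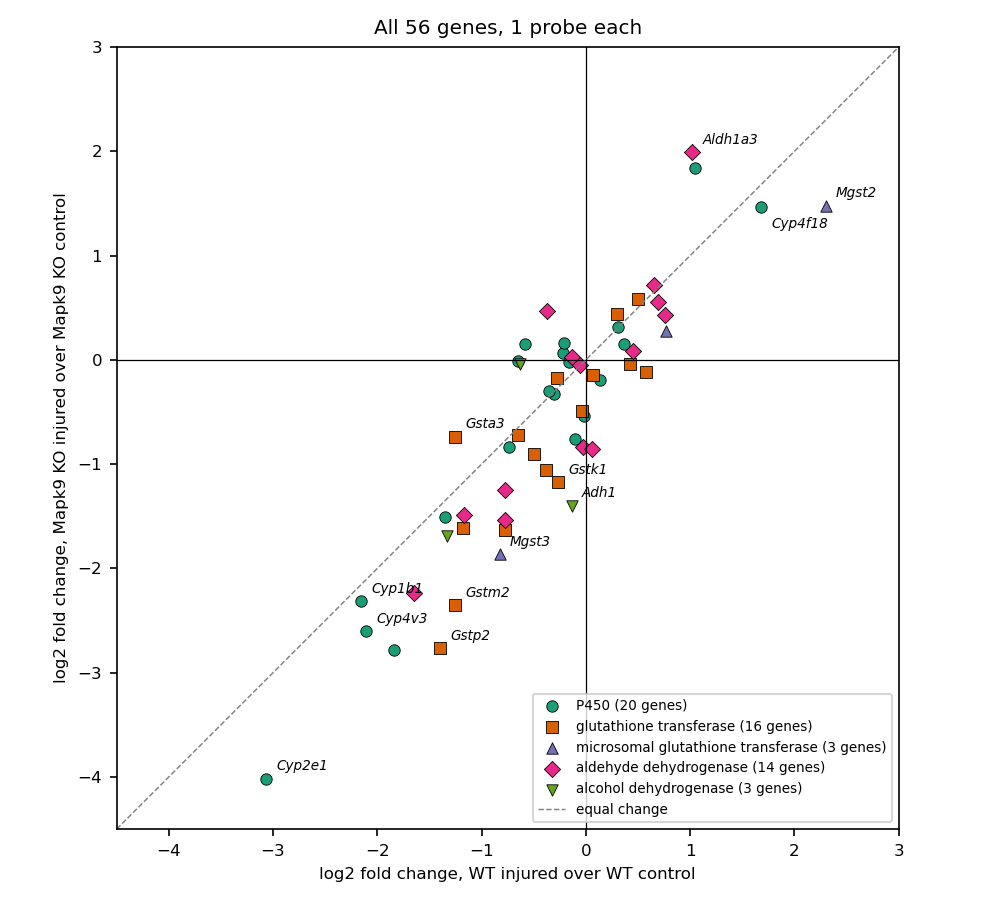
Log2 fold change with injury in Mapk9 KO (y axis) against WT (x axis) for all 56 genes, 1 probe each, with a symbol per family. The dashed line marks equal change, and Mgst3, Gstm2 and Gstp2 lie below it while Aldh1a3 lies above it. No gene passed the main interaction test, which had no replicate term.

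In control cartilage, none of the 56 genes differed between Mapk9 KO and WT (limma, smallest adjusted p 0.579), where 0.149% of all genes passed (0.0389% higher and 0.11% lower in Mapk9 KO). At an unadjusted p under 0.05 there were 13 probes for 11 genes, beside 1356 probes over the table (6.46%), and the methods' t-test gave 0. The differences of Mapk9 KO control minus WT control were 0.69 (SE 0.22, adjusted p = 0.587) for Gstk1, 0.80 (SE 0.24, adjusted p = 0.579) for Mgst1 and 1.23 (SE 0.42, adjusted p = 0.608) for Gstp2. The median over the 56 genes was 0.12, beside -0.01 over all genes. Gstp2 passed without WT control replicate 3, at 1.74 (SE 0.32, adjusted p = 0.0172), where 341 genes, 2.21% of all, passed. The skeletal muscle and adipocyte markers had medians of 1.01 and 0.95 in this comparison, with no gene of either list called.

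Genes that work with these enzymes were followed in 5 lists. Over all genes, 8.35% rose and 8.24% fell in WT, and 10.6% and 10.4% in Mapk9 KO. The lists were not tested against these shares. Of 22 genes for retinoid handling, 15 were in the table, and 4 rose and 2 fell in WT while 4 rose and 3 fell in Mapk9 KO. Rdh12, a retinaldehyde reductase of the retina, rose by 3.65 (SE 0.21, adjusted p = 3.52e-06) in WT and 3.22 (SE 0.23, adjusted p = 2.09e-06) in Mapk9 KO on its stronger probe. Dhrs9, a retinol dehydrogenase, was undetected on control arrays and at least 3.23-fold higher after injury in WT (adjusted p = 0.000118) and at least 4.82-fold higher in Mapk9 KO (adjusted p = 1.46e-06). The retinol carrier Rbp4 was at least 2.33-fold and at least 2.29-fold higher, and the receptor gene Rxra rose in both genotypes. Rxrg was at least 1.02-fold lower in WT (adjusted p = 0.042) and at least 2.00-fold lower in Mapk9 KO (adjusted p = 1.38e-05), and Rdh14 fell in WT. In Mapk9 KO, Dhrs4 fell on the weaker of its 2 probes, where the stronger had a change of -0.57. The call of the receptor gene Rarb in Mapk9 KO compares values near background, since 1 control array and no injured array detected it. The median change over this list was 0.23 in WT and -0.07 in Mapk9 KO.

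Of 12 receptors and partners that control these genes, 8 were in the table, without a probe for Ahr. Nfe2l2, which encodes the antioxidant regulator Nrf2, rose by 1.18 (SE 0.21, adjusted p = 0.00285) in WT and 1.53 (SE 0.19, adjusted p = 9.41e-05) in Mapk9 KO. Arnt rose on 1 of 4 probes in both genotypes, and the oxysterol receptor gene Nr1h3 fell by 1.04 (SE 0.20, adjusted p = 0.00426) and 1.45 (SE 0.18, adjusted p = 0.000106). Nr1i3 fell in Mapk9 KO on 1 probe. Among 6 of 11 P450 electron donors in the table, Por rose on 1 of 2 probes in WT (1.12, SE 0.22, adjusted p = 0.00454) and none passed in Mapk9 KO.

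Among 15 of 21 other conjugating and reducing enzymes in the table, none rose, where 8.35% of all genes rose in WT and 10.6% in Mapk9 KO. In WT 5 fell and in Mapk9 KO 4 fell, beside 8.24% and 10.4% of all genes. Sult1a1, a sulphotransferase, fell by 1.69 (SE 0.20, adjusted p = 0.000292) in WT and 2.15 (SE 0.25, adjusted p = 7.04e-05) in Mapk9 KO. The acetyltransferase gene Nat2 and the carbonyl reductase gene Cbr3 fell in both genotypes. The quinone reductase gene Nqo1 fell by 1.05 (SE 0.23, adjusted p = 0.00854) in WT and had -0.94 (SE 0.20, adjusted p = 0.00341), under 2-fold, in Mapk9 KO. Hpgds, a sigma class glutathione transferase that makes prostaglandin D2, was at least 1.53-fold lower in WT (adjusted p = 0.00258), and the epoxide hydrolase gene Ephx2 fell in Mapk9 KO. Median changes over this list were -0.57 and -0.72.

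Of 6 genes for glutathione supply, 4 were in the table (Gclc and Ggt1 were not). Slc7a11, the cystine importer that feeds glutathione synthesis, passed on all 4 of its probes in both genotypes and was at least 11.5-fold higher after injury in WT (adjusted p = 3.52e-06) on its strongest probe, where in Mapk9 KO it rose by 3.64 (SE 0.24, adjusted p = 1.35e-06). The synthesis genes Gclm and Gss and the reductase gene Gsr did not pass, with changes of -0.50, -0.30 and 0.70 in WT on their main probes. The medians over all 4 were 0.20 and 0.33.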

How the data were processed

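The hip cartilage of 12 samples (4 groups of 3 arrays) was measured on Illumina mouse BeadChips. The raw intensities of 45281 probes (mean bead signals as scanned) were deposited, and a detection p-value per probe and array was deposited beside them. From these the authors made log2 values by subtracting background estimated on negative control probes and applying vsn, and kept 21004 probes. The versions of R and vsn and the rule of the filter are not given in the sources used here. The fitted change of a dim probe depended on the scaling. For Cyp2e1 in WT, undetected on the injured arrays, it was -3.07 on the vsn values. It was -2.04 with neqc and -1.15 with quantile normalization and no background correction.

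Groups and replicate numbers came from the labels. The number of arrays limits the precision, and with 3 arrays in each group the smallest two-sided p of an exact permutation test is 0.1. The tests were run in R 4.3.3 with the linear models of limma (version 3.58.1, moderated by eBayes), for every probe and on the 6 arrays of a comparison (12 for the interaction), and p-values were adjusted by Benjamini-Hochberg across the whole table. Passing took a fold above 2 and an adjusted p under 0.05 in at least 1 probe, and the interaction needed the adjusted p only. The main probe of a gene is the one with the highest mean over all arrays. For a bound, the group with signal was compared by its mean with a floor on the arrays without it, which is the dimmest detected probe of that array or, if brighter, the probe itself. Genes chosen for naming are those that passed, those the study names, those of related lists that passed and, per family, up to 2 uncalled genes with WT intervals nearest 0. The remaining uncalled members and some list genes that did not pass are named as well. The members and lists were chosen with earlier results of these data known. The study names Perseus and, for the p-values of genes it plots, Student's t-test, which is here the methods' t-test.

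Same-numbered samples deviated from their group means together (correlations 0.153 to 0.390 over 18 pairs, against -0.289 to 0.0825 over 36 others). The numbers were thus taken as pairing the samples, but the main tests had no replicate term. A replicate block was run as an alternative. Alternatives were neqc (offset 16), quantile normalization without background correction, the methods' t-test, a replicate block, a block for the label code's number, one fit of all 12 arrays, a limit to probes detected on 3 or more arrays, array medians subtracted, other fold limits, the highest-mean probe and each array left out. In simulated data with 200 of 21004 probes changed, limma recovered 89.6% of probes changed by 2 on the log2 scale in the WT comparison, 91.7% in Mapk9 KO and 79.2% for the interaction. Changes smaller than 2 were not simulated, nor was variation shared by same-numbered samples. Recovery of smaller changes, such as the interactions given above, is therefore not known. Promoter windows are from RefSeq (GRCm38.p6). Protein sequences were not used here.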

Additional observations from a re-analysis of the deposited data

How the results depend on the processing

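No called change turned its sign under any alternative that was run. In WT, where 17 genes passed, 6 did (2 up and 4 down; 5 of the 17 and Mgst3) with quantile normalization and no background correction, 8 (3 up and 5 down) by the methods' t-test, 13 (12 of the 17 and Mgst3) with neqc and 14 with probes detected on at least 3 arrays. Without a fold limit, or with a limit of 1.5, 25 genes passed in WT (7 up and 18 down) and 30 in Mapk9 KO (5 up and 25 down). In Mapk9 KO, the 22 genes became 11 (3 up and 8 down) with quantile normalization and no background correction and stayed at 18 or more under the other alternatives. The genes of the 5 related lists that passed numbered 16 in WT and 16 in Mapk9 KO, became 4 and 5 with quantile normalization and no background correction, and numbered 27 in Mapk9 KO without a fold limit or with a limit of 1.5. The genes that lost their call with quantile normalization had smaller fitted changes. A kept gene could have a smaller change too, as -1.21 in place of -2.16 for Cyp1b1 in WT. Mgst3 in WT had a larger one, -1.02 in place of -0.83 on its stronger probe, and was gained. The cause was not tested. With each array left out in turn, 13 to 18 genes passed in WT (2 to 4 up and 10 to 15 down) and 21 to 25 in Mapk9 KO, the interaction gave 0 to 1 and the genotype comparison 0 to 1. Genes gained were Mgst3, Aldh3a1, Gstm6 and Mgst1 in WT (Aldh3a1 and Gstm6 without WT control replicate 2) and, in Mapk9 KO, Aldh6a1 and, on probes at or near background, Cyp4b1 and Cyp4f16. The 2 rises were without WT injured replicate 1, and both single genes were Gstp2, without WT control replicate 3. With the replicate number as a block, 1 gene (Mgst3) passed the interaction test in place of 0, and the pairing changed no other call: the 17 and 22 genes were the same ones. Dim probes limit the values of Aldh1a7, Aldh1a2 and Gsta3, which were at or near background in WT.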
